A study of Homo sapiens with 6 samples.

Results

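Fibroblast growth factor (FGF) receptors and ligands were examined in RH36 cells, an embryonal rhabdomyosarcoma (ERMS) line without the PAX3/FOXO1 translocation, using 10 genes chosen by name: the receptors FGFR1, FGFR2, FGFR3 and FGFR4, the receptor-like FGFRL1, the ligands FGF1, FGF2, FGF7 and FGF8, and the receptor adaptor FRS2. Every probe carrying one of these names on the arrays was taken, which gave 25 probes among 41000, and these 10 genes were among 30484 gene names on the array. The cells had been transiently transfected with a miR-27a precursor (pre-miR-27a, 3 arrays) or with a negative precursor control (pre-control, 3 arrays), and both groups came from the same parental line. The labels give 10 nM of precursor, 48 hours for the pre-miR-27a arrays and 24 hours for the test of miRNA level, and give no analysis time for the control arrays. The methods of the study give another dose for RH36 cells, and its text places effects in these cells at 24 hours, so the conditions of the arrays were not settled. The arrays are labelled as biological replicates of a single line, and the spread between them is that between replicates of that line. The labels do not say whether each replicate was a separate transfection.

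FGFs are secreted or intracellular signalling proteins. Secreted FGFs bind the tyrosine kinase receptors FGFR1 to FGFR4 together with heparan sulfate, and the activated receptors pass the signal through the membrane-anchored adaptor FRS2 to the RAS-ERK and PI3K pathways. FGFRL1 binds FGFs but lacks the intracellular tyrosine kinase. In muscle, FGF signalling keeps myoblasts dividing and delays their differentiation, FGFR4 is a receptor of muscle precursors, and FGFR4 is expressed highly and sometimes mutated in rhabdomyosarcoma.

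By design the groups differed in the precursor they received, pre-miR-27a or a negative control with another sequence, so each difference compares these precursors. The mature miRNA named in the study's methods for pre-miR-27a is miR-27a-3p, shown here. Its seed, bases 2 to 8 counted from the 5′ end, through which a miRNA pairs with its target mRNAs, is in capitals.
hsa-miR-27a-3p: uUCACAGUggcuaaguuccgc
The sequence is that of RefSeq, from the minus strand of GRCh38.p14 at chr19:13836447-13836467. A perfect match of an mRNA to this seed reads ACUGUGA, and transcripts of the 10 genes were not searched for it. Mature miR-27a was not measured on these mRNA arrays.

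Across the series, 69.9% to 78.0% of spots were well above background and none was saturated. Muscle lineage genes matched the label: 7 of 8 such genes (with DES, the muscle intermediate filament, and MYOD1, the myogenic master regulator) were well above background on all 6 arrays, whereas MYF5 was so on none. Of these, 7 were tested and 0 were called by limma (3 at an unadjusted p under 0.05, beside 9037 of all 36469 probes). The summed linear signal of the muscle list was 128527 to 172792 units (pre-control) and 116036 to 154967 units (pre-miR-27a). EPCAM and CDH1 (epithelial), PTPRC (leukocyte) and PECAM1 (endothelial) were well above background on no array. The other lists were not absent as a whole: 5 of 6 fibroblast, 2 of 5 epithelial (KRT8 and KRT18), 2 of 4 leukocyte (CD3E and CD14) and 1 of 4 endothelial genes (VWF) were well above background on all 6 arrays. The summed signal was 38965 to 65415 units on pre-control and 48914 to 82997 on pre-miR-27a arrays for the fibroblast list, 2639 to 2826 and 2340 to 2583 for the epithelial, 361 to 402 and 258 to 280.3 for the leukocyte, and 127 to 213 and 119 to 142 for the endothelial list. Of these markers, THY1 (fibroblast), KRT8 (epithelial), CD3E and CD14 (leukocyte) were called lower and KRT18 (epithelial) higher on pre-miR-27a arrays, and their part in the results below was not tested. Each group occupied a slide of its own, so slide and group cannot be told apart in any comparison below. Median local background was 74.5 to 76.0 units on the pre-control and 52.5 to 53.0 on the pre-miR-27a arrays. Of 417 probes well above background on every pre-miR-27a array and on no pre-control array, 58 of the 330 tested were called and all 58 were higher, while the opposite pattern was found for 4 probes.

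Levels are log2 of the quantile-normalized signal of 1 probe, and a level is not compared between probes, since probes hybridize with different strength. A difference is the mean of the 3 pre-miR-27a arrays minus that of the 3 pre-control arrays, on the log2 scale. It was tested with limma over all 36469 probes kept, and a probe was called where the p-value adjusted by Benjamini-Hochberg was under 0.05. Of the 25 member probes, 23 were tested and 19 were well above background on all 6 arrays. In this comparison 6 member probes were called (26.1%), against 7.83% of all probes. All 6 were higher on the pre-miR-27a arrays, where 3.95% of all probes were called higher, and 0 were lower (2 at an unadjusted p under 0.05), where 3.88% of all probes were called lower. In either direction, 12 of the 23 tested member probes had an unadjusted p under 0.05, beside 9037 of all 36469 probes. The 6 called probes lay in FGFR1 (4 probes), FGFR3 and FGF7 (1 probe each), so they are not independent of each other. The share thus rests largely on FGFR1. Taking each gene by its brightest probe, FGFR1 was the only member called, where 6.65% of all 16612 genes were called. With the mean of all kept probes of a gene, no member was called, and FGFR1 had the lowest adjusted p (0.0615, limma). Member genes were chosen with earlier results of these data known. The tested probes had a median difference of 0.07, against −0.02 for all probes, with 14 above and 9 below 0. Of the 21 member probes measured on every array, 12 had no overlap between the groups (10 higher and 2 lower on pre-miR-27a arrays), or 57.1% against 32.7% of all probes. With 3 arrays a group an exact two-sided permutation test of a single probe cannot go below 0.1.

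Leaving out any array other than pre-control 1 left 0 member probes called by limma, with 9 to 12 at an unadjusted p under 0.05, and leaving out pre-control 1 left 1 (FGFR1, most 3′ probe), with 13 at an unadjusted p under 0.05. This loss was that of the whole array: over all 36469 probes 1276 were called without pre-control 1, 81 without pre-control 3 and 0 without any one of the other 4 arrays (7178 to 7686 at an unadjusted p under 0.05). With 75th-percentile scaling in place of quantile normalization, 3 member probes were called, against 8.93% of all probes. That scaling also moved the split of all calls from 1440 higher and 1416 lower to 1275 higher and 1981 lower. The study used SAM, and its results describe a paired form, which was not run here. Unpaired SAM at a false discovery rate of 5% called 2 of 21 member probes against 5.76% of all probes. The main limma fit was also unpaired, and calls with a block on replicate number are given below.

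**Figure D1:**
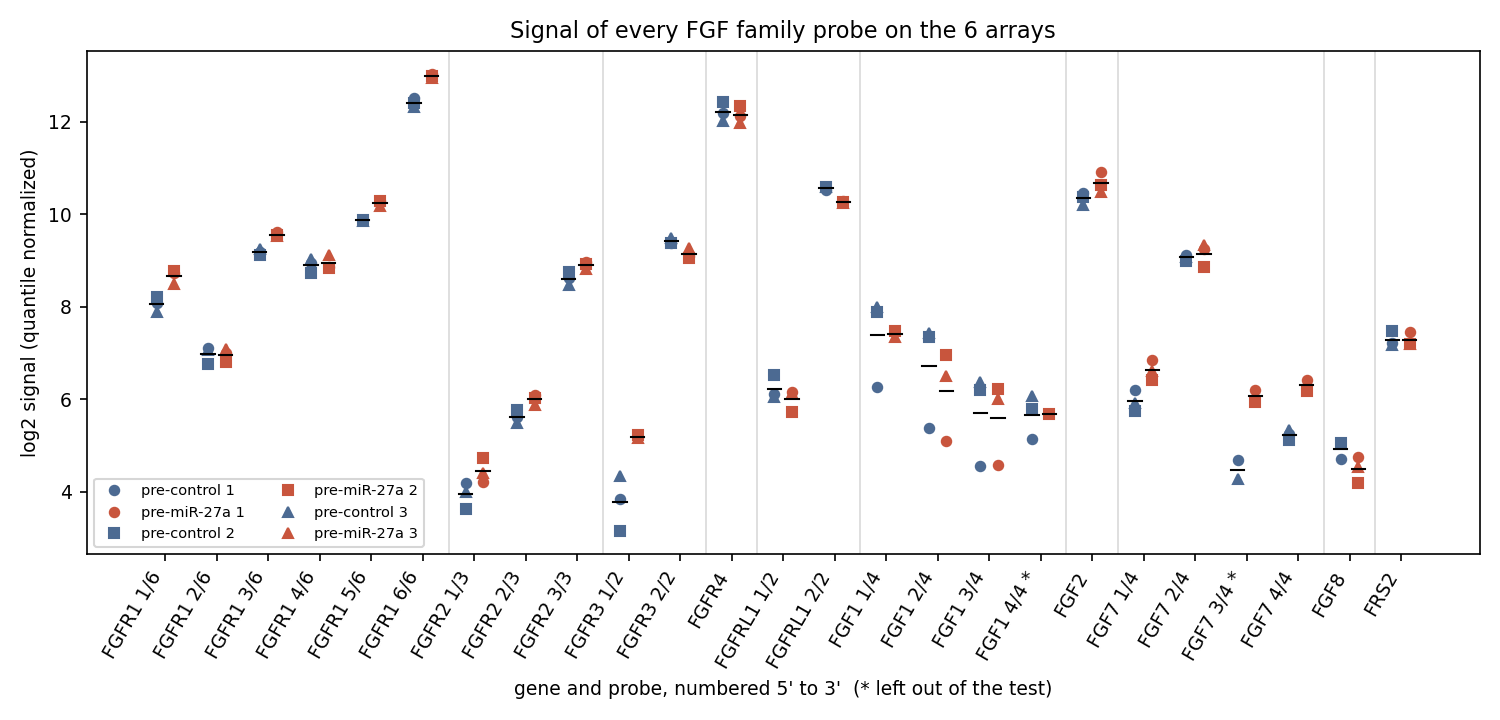
Quantile-normalized log2 signal (y axis) of each of the 25 probes on each array (blue, pre-control; red, pre-miR-27a; symbols give the replicate number; black bars, group means of the arrays shown), with probes of a gene numbered 5′ to 3′ and asterisks at the 2 probes left out of the test. FGFR4 lies between 11.96 and 12.42 in both groups, the most 3′ FGFR1 probe is higher on every pre-miR-27a array, and the first 3 FGF1 probes are lowest on replicate 1 wherever it was measured.

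FGFR4, the receptor of muscle precursors, was measured with 1 probe (chr5:176455727-176455786, hg18, plus strand) and was well above background on all 6 arrays. Its log2 signal was 12.18, 12.42 and 12.01 on pre-control arrays 1, 2 and 3, and 12.12, 12.33 and 11.96 on pre-miR-27a arrays 1, 2 and 3. The groups overlapped. The means were 12.20 ± 0.21 and 12.14 ± 0.19 (SD, n = 3 each), and the difference of −0.07 (SE 0.15, 95% interval −0.44 to 0.31) did not pass the test (adjusted p = 0.831, limma). That interval held values from a fall by 0.44 to a rise by 0.31 on the log2 scale. The spread was mainly between replicate numbers: array 2 was highest and array 3 lowest in both groups. Between arrays of the same number the differences were −0.06, −0.09 and −0.05. Blocking on replicate number kept the size of the difference, lowered its SE to 0.05, and still gave no call (adjusted p = 0.404, limma).

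The 5 genes whose brightest probe followed FGFR4 most closely over the 6 arrays, among 12791 genes well above background on all of them, were POLA1 (Pearson r = 0.996), PAF1 (0.993), NT5DC2 (0.993), PRPS2 (0.993) and MOB1A (0.992). POLA1 encodes the catalytic subunit of DNA polymerase alpha, PAF1 a subunit of a transcription elongation complex, and PRPS2 an enzyme of nucleotide synthesis. POLA1 showed the order of FGFR4 in both groups, with 14.03, 14.38 and 13.76 on pre-control arrays 1, 2 and 3 and 13.92, 14.28 and 13.75 on pre-miR-27a arrays 1, 2 and 3. These r values describe 6 arrays in which the replicate number carried most of the spread of FGFR4.

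FGFR1, the most broadly expressed of the receptors in mesenchymal cells, was covered by 6 probes along 44503 bases of the minus strand of chromosome 8, all well above background on all 6 arrays. Of the 6 probes, 4 rose by 0.38 to 0.60 on the log2 scale, and the remaining probes did not pass the test. The most 3′ probe (chr8:38389627-38389686, hg18) read 12.52, 12.39 and 12.31 on pre-control arrays and 13.03, 12.99 and 12.95 on pre-miR-27a arrays. Every pre-miR-27a array was above every pre-control array. The difference was 0.58 (SE 0.09, 95% interval 0.37 to 0.80, adjusted p = 0.0234, limma), a 1.5-fold higher signal.

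The most 5′ probe, 44503 bases upstream on the genome (chr8:38434130-38434189), read 8.08, 8.21 and 7.88 and then 8.72, 8.77 and 8.50 on the pre-miR-27a arrays. Its groups also lay apart, with a difference of 0.60 (SE 0.13, adjusted p = 0.0468, limma). The probe at chr8:38391296-38391504 read 9.87, 9.88 and 9.85 and then 10.28, 10.29 and 10.17, a difference of 0.38 (SE 0.07, adjusted p = 0.0394, limma). The probe at chr8:38394554-38394613 read 9.19, 9.11 and 9.25 and then 9.62, 9.54 and 9.52, a difference of 0.38 (SE 0.08, adjusted p = 0.0475, limma). The adjusted p-values of 3 of the 4 probes lay between 0.039 and the threshold.

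The remaining 2 FGFR1 probes moved little. The probe at chr8:38393765-38393824, designed on a cDNA clone and 789 bases from the nearest probe that rose, read 8.94, 8.73 and 9.03 on pre-control and 8.86, 8.84 and 9.11 on pre-miR-27a arrays. The groups overlapped, and the difference was 0.04 (SE 0.12, 95% interval −0.27 to 0.34, adjusted p = 0.884, limma). The probe at chr8:38400710-38400769 was designed on the RefSeq transcript NM_023107, which the annotation of the most 5′ probe, which rose, also names. That transcript is not listed for FGFR1 in the RefSeq table used here. The probe read 7.10, 6.77 and 7.07 on pre-control and 6.99, 6.81 and 7.08 on pre-miR-27a arrays. Its difference was −0.02 (SE 0.13, 95% interval −0.34 to 0.30, adjusted p = 0.941, limma).

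The same FGFR1 values can be written as ratios within arrays, which adds no independent measurement. The signal of the cDNA clone probe relative to the nearest probe that rose was −0.25, −0.37 and −0.22 on pre-control and −0.75, −0.70 and −0.40 on pre-miR-27a arrays. This within-array ratio shifted by −0.34, without overlap between groups (exact permutation p = 0.1, the smallest that 3 against 3 arrays can give). Against the most 3′ probe, the same ratio shifted by −0.54 and that of the other unmoved probe by −0.61, again without overlap (exact permutation p = 0.1 for both). These pairs, each of an uncalled and a called probe, were picked after the values of the probes had been seen, so the ratios are descriptive. How often other probe pairs lack overlap was not counted. Averaged over its 6 probes, FGFR1 was 0.33 higher (SE 0.07), short of the threshold (adjusted p = 0.0615, limma).

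**Figure D2:**
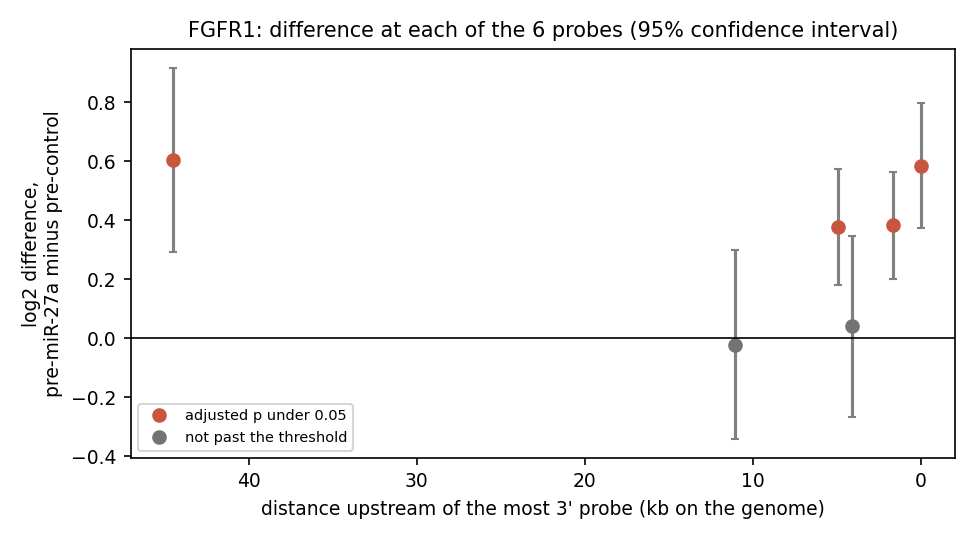
Difference between pre-miR-27a and pre-control arrays (y axis, log2, with the 95% confidence interval from limma; n = 3 arrays a group) at the 6 FGFR1 probes, placed by distance upstream of the most 3′ probe (x axis, kb). The 4 probes past the threshold (red) lie at 0.38 to 0.60 and at both ends of the gene, and the 2 others (grey) at −0.02 and 0.04 lie between them.

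FGFR2, best known as a receptor of epithelial and bone-forming tissues, had 3 probes on the minus strand of chromosome 10, none of them called. The most 3′ probe (chr10:123227830-123227843) read 8.61, 8.74 and 8.46 on pre-control and 8.97, 8.93 and 8.81 on pre-miR-27a arrays. The groups did not overlap, and the difference was 0.30 (SE 0.10, 95% interval 0.04 to 0.55, adjusted p = 0.149, limma). The next probe (chr10:123233207-123233266) read 5.62, 5.76 and 5.48 and then 6.10, 6.02 and 5.87, a difference of 0.37 (SE 0.11, adjusted p = 0.105, limma). It was 0.06 with normexp background correction (adjusted p = 0.715, limma). Here and below, that correction added an offset of 50 units to every spot, which by itself draws differences of dim probes toward 0. The third, annotated across 13102 bases (chr10:123300946-123314047), was well above background on no pre-control array and on 2 pre-miR-27a arrays. It read 4.20, 3.64 and 4.004 and then 4.22, 4.73 and 4.41 (adjusted p = 0.191, limma), and no fold is given because the pre-miR-27a mean lay under the floor set by background. With normexp correction this probe was called (adjusted p = 0.0199), which its signal at background level does not allow to be read as a rise.

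The 2 probes of FGFR3, a receptor that restrains growth of cartilage, went opposite ways. The most 3′ probe (chr4:1780161-1780220, plus strand) read 9.37, 9.38 and 9.48 on pre-control and 9.09, 9.06 and 9.27 on pre-miR-27a arrays. The groups did not overlap, and the difference of −0.27 (SE 0.09, 95% interval −0.50 to −0.04) was not called (adjusted p = 0.146, limma). The probe 1309 bases upstream (chr4:1778852-1778911) was well above background on no pre-control array and on all 3 pre-miR-27a arrays. It read 3.85, 3.15 and 4.34 on pre-control and 5.18, 5.22 and 5.16 on pre-miR-27a arrays, and was called higher (adjusted p = 0.0487, limma).

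Because the pre-control signal of that dim FGFR3 probe was not well above background, no fold against that signal is given. The mean of the pre-miR-27a arrays was 1.43-fold a floor. On each pre-control array this floor was the dimmest signal that still counted as well above background, or the signal of this probe where that was higher. Before normalization the probe had 8.46 to 25.035 units on pre-control and 32.2 to 35.3 units on pre-miR-27a arrays, where median local background around it was 74.3 and 53.7 units. With normexp correction, which models the background of each array, the difference was 0.41 on the log2 scale and was still called (adjusted p = 0.0265, limma). This was smaller than the ratio to the floor, so that ratio is not a lower bound of the rise. The offset of 50 units in that correction exceeded the signal of this probe on every array. The parts of local background and of the offset were not tested further. The call was lost with the replicate block (adjusted p = 0.0566, limma), with 75th-percentile scaling (0.0695) and without the filter on dim spots (0.0525). The mean of both FGFR3 probes was 0.57 higher, opposite in sign to the bright probe, and was not called (adjusted p = 0.127, limma).

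FGFRL1, the receptor without a kinase domain, was lower at both of its probes, neither of them called. The bright probe (chr4:1009939-1009998, plus strand) read 10.53, 10.58 and 10.59 on pre-control and 10.27, 10.25 and 10.24 on pre-miR-27a arrays. The groups lay well apart, with a difference of −0.31 (SE 0.07, 95% interval −0.48 to −0.14) just short of the threshold (adjusted p = 0.0542, limma). Blocked on replicate number it passed (adjusted p = 0.0490, limma), as it did with a variance trend and robust estimation (0.0372). The probe 1210 bases upstream (chr4:1008729-1008788) read 6.11, 6.52 and 6.05 and then 6.16, 5.72 and 6.13, overlapping, with a difference of −0.23 (SE 0.18, adjusted p = 0.512, limma). With the block, 7 member probes were called (6 higher and FGFRL1 lower) against 14.9% of all probes, and 5 of the 7 were among the 6 called without it.

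**Figure D3:**
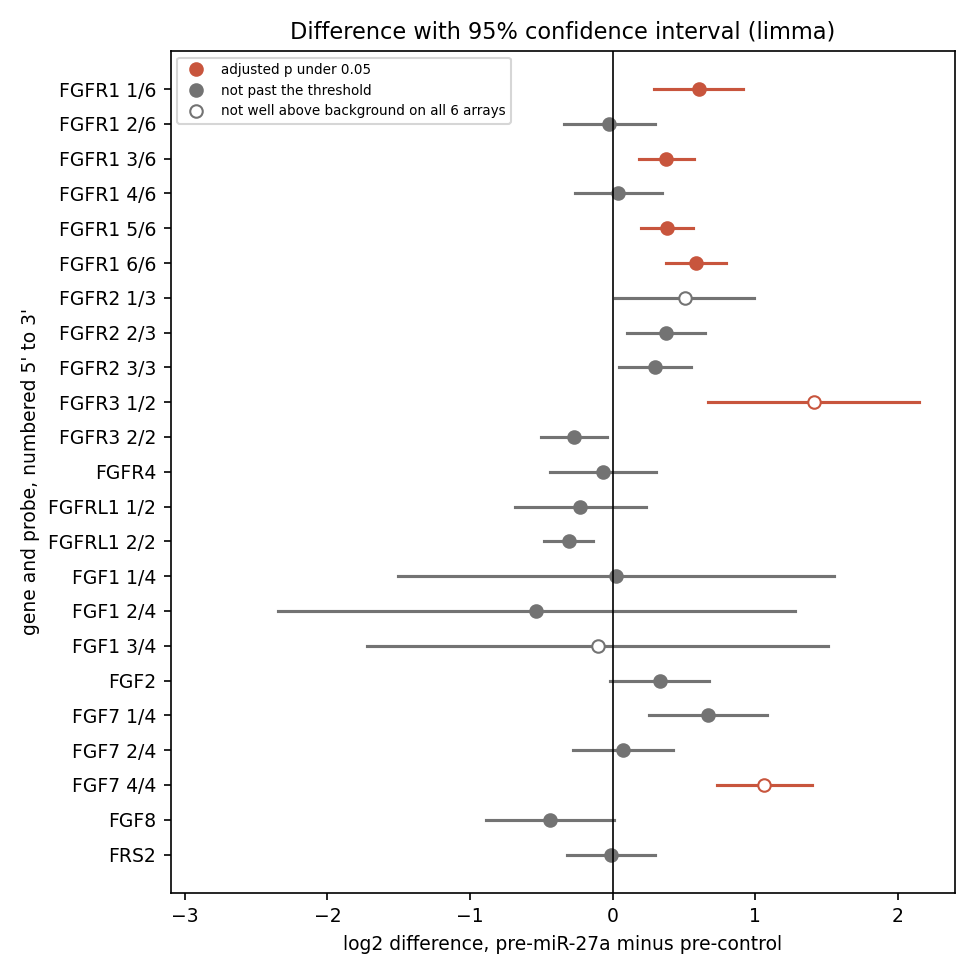
Difference between pre-miR-27a and pre-control arrays (x axis, log2) with its 95% confidence interval from limma for the 23 tested probes (n = 3 arrays a group, less 1 missing array for FGF1 1/4 and FGF7 4/4), with red for an adjusted p under 0.05 and open symbols for probes not well above background on all 6 arrays. The 6 red points are all above 0, and of these the FGFR3 and FGF7 points are open.

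FGF1, the ligand that can bind all 4 receptors, had 4 probes within 1470 bases on the minus strand of chromosome 5, and none was called. Its values split by replicate number rather than by group. The probe at chr5:141954996-141955055 read 5.38, 7.33 and 7.44 on pre-control and 5.11, 6.95 and 6.49 on pre-miR-27a arrays. Replicate 1 was thus the low array in both groups, at −2.01 (pre-control) and −1.62 (pre-miR-27a) relative to the mean of the other arrays. The difference of −0.54 (SE 0.73, 95% interval −2.35 to 1.28) was far inside this spread between replicate numbers (adjusted p = 0.711, limma). Between arrays of the same number the differences were −0.28, −0.39 and −0.94, and with the block the SE was 0.16 (adjusted p = 0.111, limma).

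The FGF1 probe at chr5:141954772-141954831, designed on another transcript (AF211169), again had replicate 1 lowest, with 4.55, 6.20 and 6.36 on pre-control and 4.58, 6.22 and 6.00 on pre-miR-27a arrays, a difference of −0.10 (SE 0.65, adjusted p = 0.944, limma). Between arrays of the same number this probe differed by 0.03, 0.02 and −0.36. The most 5′ probe (chr5:141955101-141955160) read 6.26, 7.89 and 7.99 and then 7.47 and 7.34 on pre-miR-27a arrays 2 and 3, since the spot was not found on pre-miR-27a array 1. Its fitted difference of 0.02 (SE 0.58, adjusted p = 0.987, limma) therefore compared 3 arrays with 2. Without pre-control array 1, which leaves replicates 2 and 3 on both sides, it was −0.53 (SE 0.12, adjusted p = 0.103, limma). With the replicate block the 3 tested probes had differences of −0.53 to −0.10 with SEs of 0.10 to 0.16, and none was called (adjusted p = 0.0813 to 0.537, limma). The fourth probe (chr5:141953631-141953690) was left out of the test, with the spot not found on pre-miR-27a arrays 1 and 3.

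A drop of this size on replicate 1 was uncommon. Of 31717 probes measured on every array, 114 (0.359%) were lower by at least 1 on the log2 scale on replicate 1 than on the mean of the others in both groups, and 133 were higher by as much. Both FGF1 probes measured on all arrays were among the former.

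**Figure D4:**
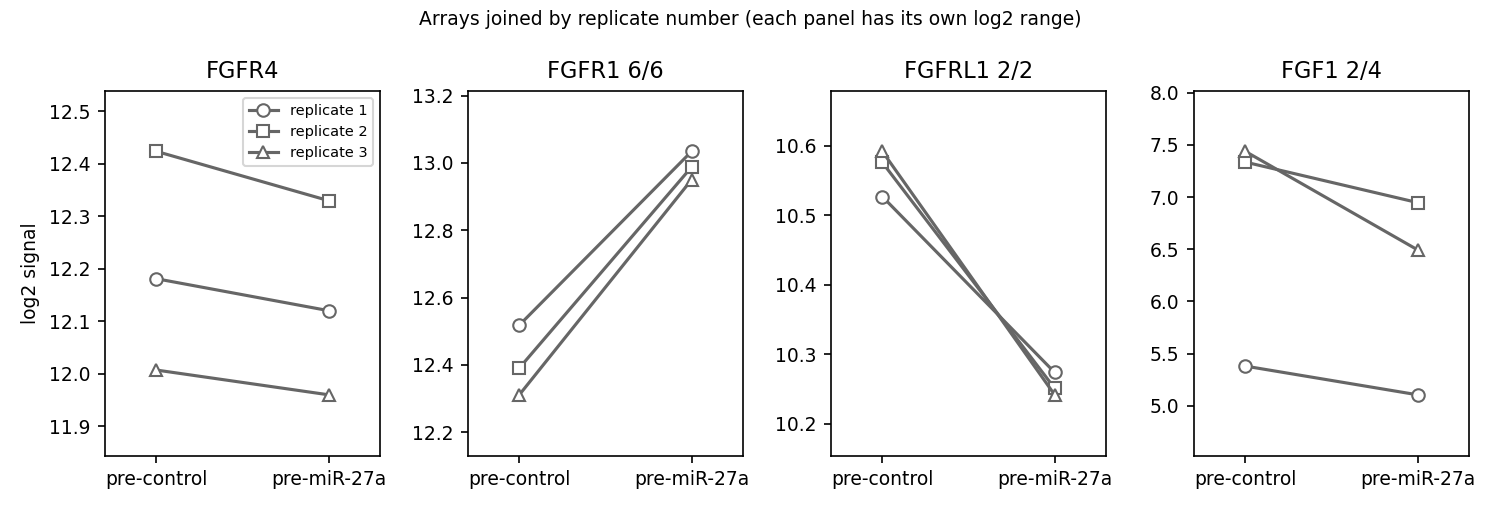
Log2 signal (y axis, with a separate range for each panel) of the FGFR4 probe, the most 3′ FGFR1 probe, the bright FGFRL1 probe and the second FGF1 probe, with arrays of the same replicate number joined between groups. FGFR4 and FGF1 are ordered by replicate number more than by group, whereas every line of FGFR1 rises and every line of FGFRL1 falls.

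FGF2, the basic FGF that sustains myoblast proliferation in culture, was measured with 1 probe (chr4:124038472-124038531, plus strand) printed 10 times on each array, and the SD between these spots was 0.0323 to 0.0782. It read 10.45, 10.38 and 10.20 on pre-control and 10.91, 10.62 and 10.48 on pre-miR-27a arrays. The groups did not overlap, although the gap between the highest pre-control and the lowest pre-miR-27a array was small beside the spread within each group. The difference was 0.33 (SE 0.14, 95% interval −0.02 to 0.68) and was not called (adjusted p = 0.221, limma). Between arrays of the same number it was 0.47, 0.24 and 0.28, and with the block it stayed short of the threshold (adjusted p = 0.0667, limma).

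FGF7, the keratinocyte growth factor that stromal cells secrete to act on epithelial FGFR2, had 4 probes on the plus strand of chromosome 15 that did not move alike. The bright probe (chr15:47564872-47564931) read 9.12, 8.99 and 9.07 on pre-control and 9.24, 8.85 and 9.32 on pre-miR-27a arrays. The groups overlapped, with a difference of 0.07 (SE 0.14, 95% interval −0.28 to 0.43, adjusted p = 0.801, limma). The most 3′ probe, 1052 bases downstream of it (chr15:47565924-47565983), was dim, well above background on 2 pre-control arrays and all 3 pre-miR-27a arrays. It read 5.24, 5.12 and 5.34 on pre-control arrays and 6.42 and 6.18 on pre-miR-27a arrays 1 and 2, with the spot not found on array 3. Its difference of 1.07 (SE 0.13, adjusted p = 0.0224, limma, 3 against 2 arrays) was called, and was lost with 75th-percentile scaling (adjusted p = 0.0506). With normexp background correction and its offset it was 0.55 and still called (adjusted p = 0.0330, limma).

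A further dim FGF7 probe (chr15:47565844-47565903) was left out of the test for 2 missing arrays. It was well above background on no pre-control array and on all 3 pre-miR-27a arrays. The pre-miR-27a mean was 2.53-fold a floor set as for FGFR3, which is likewise not a lower bound of a rise. This FGF7 probe entered 3 alternatives with other filters and was called higher in each (adjusted p = 0.0219 without the filter, 0.0159 with the deposited values and 0.0159 with the positive and significant flag, limma). The most 5′ probe (chr15:47503827-47503886) read 6.20, 5.75 and 5.92 on pre-control and 6.85, 6.41 and 6.62 on pre-miR-27a arrays, apart by 0.67 (SE 0.17, adjusted p = 0.0705, limma), and was called with the replicate block (adjusted p = 0.0334, limma). With normexp correction it was 0.33 (adjusted p = 0.0857, limma). The signal of the called FGF7 probe before normalization, already corrected for background, was 32.6 to 48.0 units on pre-control and 66.2 to 83.8 units on pre-miR-27a arrays. Median local background around it was 77.0 and 52.5 units, and the part of this background was not tested beyond the normexp correction.

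FGF7 is also uncertain because the genome holds partial copies of it. The RefSeq table lists 8 FGF7 pseudogenes. The annotation of the 2 dim probes at the 3′ end names sequences that the other FGF7 probes do not, and their origin was not traced. A probe of one copy, KGFLP1, read 8.48, 8.47 and 8.62 on pre-control and 9.06, 8.72 and 9.03 on pre-miR-27a arrays, with a difference of 0.41 (SE 0.12, adjusted p = 0.101, limma). A second KGFLP1 probe differed by 0.04 (SE 0.18, adjusted p = 0.925, limma). Probe sequences were not available, so it was not tested which FGF7 probes also read its copies.

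FGF8, an embryonic patterning ligand, was near the lower end of detection. Its probe, annotated across 903 bases (chr10:103520352-103521254, minus strand), was well above background on all 6 arrays and read 4.72, 5.06 and 5.02 on pre-control and 4.76, 4.18 and 4.54 on pre-miR-27a arrays. The groups overlapped, and the difference of −0.44 (SE 0.18, 95% interval −0.89 to 0.01) was not called (adjusted p = 0.210, limma). With normexp background correction and its offset it was −0.0096 (adjusted p = 0.964, limma).

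FRS2, the adaptor that links activated FGF receptors to GRB2 and SHP2, read 7.22, 7.47 and 7.18 on pre-control and 7.45, 7.18 and 7.20 on pre-miR-27a arrays at its 1 probe (chr12:68254506-68254565, plus strand). The groups overlapped, with a difference of −0.01 (SE 0.12, 95% interval −0.32 to 0.29, adjusted p = 0.967, limma).

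The rest of the pathway was described with 5 lists of 85 genes, each gene by its brightest probe. Of these, 77 were measured and 63 were well above background on all 6 arrays. By limma, 2 of the 77 were called (2.60%), against 6.65% of all 16612 genes. Their median difference was −0.01, against −0.04 for all genes.

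Among 14 measured ligands outside the members, FGF3, a ligand of embryonic development, was called lower and none higher. It read 13.65, 13.51 and 13.69 on pre-control and 13.10, 12.83 and 12.98 on pre-miR-27a arrays at its single probe. The groups lay apart, and FGF3 fell by 0.65 (SE 0.10, adjusted p = 0.0274, limma). Of these 14 ligands, 5 were well above background on all arrays and 4 on none.

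Among 26 measured co-receptors, heparan sulfate enzymes and FGF-binding proteins, FLRT3, a membrane protein that binds FGF receptors and promotes their signalling, was called higher. It read 12.80, 12.54 and 12.59 on pre-control and 13.30, 13.98 and 13.53 on pre-miR-27a arrays, without overlap. FLRT3 rose by 0.96 (SE 0.19, adjusted p = 0.0423, limma), a call that was lost with the replicate block (adjusted p = 0.0658, limma). None of 15 measured adaptors and effectors, 10 feedback inhibitors and 12 genes induced by FGF and ERK signalling was called by limma, with 5, 4 and 0 of them at an unadjusted p under 0.05. Their median differences were −0.01, 0.09 and −0.06. Over all 36469 probes, 9037 had an unadjusted p under 0.05 in the same limma fit. At other probes than the brightest, 2 more genes held a call: EXT1, a heparan sulfate polymerase, was higher at one (0.90, SE 0.11, adjusted p = 0.0182, limma) and MYC lower at one (−1.07, SE 0.11, adjusted p = 0.0195, limma, 3 against 2 arrays), while their brightest probes differed by 0.13 and −0.09 and were not called.

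With the block, 14.9% of all probes were called, as given above, and the share of all genes was not counted. Of the 77 genes, 11 were called with the block, which was not shown to be more often than elsewhere. Besides FGF3 these were FGF9 (0.49), the heparan sulfate proteoglycan SDC4 (−0.45), the adaptors and effectors FRS3 (−0.34), SHB (−0.40), PLCG1 (0.40) and PIK3R1 (1.19), the feedback inhibitors SPRY1 (0.37) and DUSP6 (0.37), and the induced genes CCND1 (0.62) and EPHA4 (0.68). PIK3R1, the regulatory subunit of PI3K, read 9.98, 10.22 and 10.74 on pre-control and 11.00, 11.61 and 11.91 on pre-miR-27a arrays (SE 0.30, adjusted p = 0.0724 without and 0.0334 with the block, limma). DUSP6, the ERK phosphatase, read 14.49, 14.28 and 14.56 and then 14.87, 14.72 and 14.83 (SE 0.10, adjusted p = 0.0936 without and 0.0463 with the block, limma). Both kept their groups apart, and these genes were named because of their calls with the block. Leaving out any single array left 0 of the 77 genes called by limma, with 9 to 15 at an unadjusted p under 0.05, beside the loss of calls over all probes given above. In those fits 7178 to 8636 of all 36469 probes had an unadjusted p under 0.05.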

How the data were processed

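RNA of RH36 cells was hybridized to 1-colour (Cy3) Agilent arrays, 3 for pre-control and 3 for pre-miR-27a. Feature Extraction 10.5.1.1 was used, per the file headers, and probe coordinates are those of hg18 in these files. The authors deposited, for each spot, a background-corrected processed intensity, not normalized between arrays, and a table of normalized log2 values used here as an alternative (0 of its sample columns unused). Following the study's methods, log2 intensity of non-control spots was quantile normalized, spots whose found flag was 0 were set to missing, replicate spots were averaged and probes missing on over 1 of the 6 arrays were dropped. The methods name that flag but describe a signal significant against background. The positive and significant flag left 33189 probes, near the 33169 of the deposited table, against 36469 kept here, and was an alternative. The number of arrays limits the precision.

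Groups were compared with R 4.3.3 and its packages limma 3.58.1 (tests) and data.table (reading, version 1.17.8), without a replicate block. The fit was tested on simulated data with independent noise on each array. Those data held no effect of replicate number or slide, so that test does not bear on either. Same-numbered arrays deviated together over 31717 probes (r = 0.396, 0.456 and 0.409, against −0.266 to −0.123 between other numbers), so the numbers, given by the labels, were taken to pair the arrays. Unpaired SAM was written out in R with 20 relabellings at a false discovery rate of 5%. All probes of each member are reported. Of other pathway genes those called are named, with the markers and the 5 genes most like FGFR4. Member genes and lists were chosen with earlier results of these data known. A RefSeq table (GRCh38.p14) gave current gene symbols and the miRNA.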

Additional observations from a re-analysis of the deposited data

How the results depend on the processing

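Member probes called (6 by limma with quantile normalization) numbered 3 with 75th-percentile scaling (3256 of all 36469 probes called, against 2856), 2 with SAM (1253 higher and 574 lower of all 31717) and 0 to 1 when single arrays were left out (0 to 1276 of all probes). The other alternatives gave 6 or 7, set here beside the share of all probes called. Normexp correction with an offset of 50 gave 7 (9.7%), and no filter on dim spots gave 6 (7.3%), of which 5 shared. The authors' deposited log2 values gave 6 (10.1%), of which 5 shared. The replicate block gave 7 (14.9%), and a variance trend with robust estimation gave 7 (9.26%). Only probes well above background on every array of either group gave 7 (12.6%). The called FGFR3 and FGF7 probes entered that set only through the pre-miR-27a arrays, where they were higher, so it is no separate support for them. Alternatives chosen after seeing the data gave 7 (the positive and significant flag, 9.97% of all probes) and 6 (outlier spots left out, 7.85%). Pathway genes called (2) numbered 4 with 75th-percentile scaling, 6 with normexp correction, 11 with the replicate block, 4 with a variance trend and robust estimation, 1 with the mean of all probes of a gene and 0 to 0 when single arrays were left out. Under these alternatives the share of all genes called was not counted. The difference of FGFR4 ran from −0.17 to 0.043 when single arrays were left out, turning positive without pre-control array 2 (0.043) and without pre-miR-27a array 3 (0.021), and was never called.

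Direction reversed only for probes that were not called. With normexp correction this held for FGF1 (A_23_P136433, 0.044), FGFR1 (A_23_P315131, −0.0010, and A_23_P316447, 0.12) and FRS2 (0.057). The FGF1 probe A_24_P111106 turned to −0.48 with the deposited values, without the filter and with the positive and significant flag, to −0.49 for the mean of the gene's probes and to −0.53 with the replicate block. FGFR3 turned to 0.57 for the mean of both probes. With single arrays left out, the ranges that crossed 0 were −0.68 to 0.41 (FGF1 A_23_P136433), −1.20 to 0.0027 (FGF1 A_23_P213336), −0.53 to 0.33 (FGF1 A_24_P111106), −0.020 to 0.22 (FGF7 A_23_P14612), −0.048 to 0.10 (FGFR1 A_23_P315131), −0.13 to 0.054 (FGFR1 A_23_P316447) and −0.10 to 0.077 (FRS2). The cause of these changes was not tested. Of the FGFR1 calls, that of A_24_P4171 was lost with 75th-percentile scaling and with the deposited values. A slide block was not run, since each group lay on 1 slide. Apart from the calls named with the results, the replicate block changed no call of a member probe. Dim probes limit what can be read for FGFR3, FGF7 and FGFR2.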
